A study of Mus musculus with 4 samples.

Results

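Proteasome subunit and assembly genes were examined in chromatin accessibility maps of mouse embryonic stem cells (ESCs). They were chosen by symbol: all autosomal protein-coding genes of the GENCODE vM21 annotation named Psma, Psmb, Psmc, Psmd, Psme, Psmf or Psmg with a number, which gave 49 of 20807 genes. Of these, 14 encode the constitutive 20S core (7 alpha and 7 beta subunits), 3 the immunoproteasome subunits, 1 a thymus-specific and 1 a testis-specific core subunit, and 17 the 19S cap (6 ATPases and 11 non-ATPases). A further 6 encode assembly factors, 5 activators or a gene named after one, and 1 an inhibitor. The remaining 1, Psmc3ip, matches the symbol rule but encodes no proteasome subunit and is known for meiotic recombination. The X-linked Psmd10 lies outside the rule.

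The study used ATAC-seq, in which a transposase cuts accessible DNA and places where the resulting fragments pile up are called as peaks. E14 ESCs grown in serum plus LIF (leukemia inhibitory factor) were infected with a pLKO lentivirus carrying a short hairpin RNA. Puromycin selection (2 μg/ml) lasted 2 days, and harvest followed 2 days later. There were 4 libraries, 1 with a hairpin against GFP (shGFP) and 3 with a hairpin against luciferase (shLuc replicates 1, 2 and 3). Neither target is a mouse gene, so all 4 libraries are non-targeting controls and all carry an integrated vector, with no uninfected cells beside them. Both groups are 1 ESC line, and nothing states that the shLuc replicates were separate infections, so their spread may be technical. With 1 library against 3, no exact permutation test can give a p below 0.25, so hairpin differences are set beside the standard deviation (SD) of the shLuc libraries.

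The proteasome degrades proteins that carry ubiquitin chains. Its 20S core is a barrel with outer alpha rings, which gate the entrance, and inner beta rings, which hold the protease sites. The 19S cap binds the ubiquitin chain, removes it, and unfolds and feeds in the substrate with a ring of ATPases. Interferon gamma induces alternative beta subunits that replace the constitutive protease subunits and form the immunoproteasome, which favours peptides for antigen presentation. A peak at a promoter shows accessible DNA there and is no measure of RNA or protein.

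The lists held 41943 peaks for shGFP and 17860, 41401 and 31585 for shLuc replicates 1, 2 and 3, with median widths of 603 to 663 bp. The shLuc replicate 1 list was the shortest, and sequencing depth was not examined here for any of the 4. A gene was given a promoter peak when a peak lay within 1 kb of any of its annotated transcript starts. Among 6 ESC marker genes, only Zfp42 had one in every library, Klf4 and Esrrb had one in 2 libraries each, and Pou5f1, Nanog and Sox2 had none. Among 5 genes of other lineages, Sox17 had one in every library, Myod1 had one in 1, and none was found at Alb, Hba-a1 or Gata4. The promoter peaks of these marker genes therefore did not separate ESCs from other cell types.

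Most proteasome genes had an accessible promoter in every library. A promoter peak was found in all 4 libraries at 37 of the 49 genes (75.5%), against 44% of all autosomal coding genes. It was found in 1 to 3 libraries at 10 genes (20.4%, against 22%) and in no library at 2 genes (4.08%, against 34%). By library, 46 of the 49 had a promoter peak in shGFP, and 42, 44 and 42 in shLuc replicates 1, 2 and 3. For all autosomal coding genes, the share with a promoter peak was 61.9% for shGFP, beside 48.4%, 61.5% and 56.3% for the shLuc replicates. At least 1 library had a promoter peak at 66% of all autosomal coding genes. Between the libraries the proteasome count ran from 42 to 46 while the number of peaks in the lists ran from 17860 to 41943. Without shLuc replicate 1, 40 of the 49 had a peak in every library, against 53.7% of all autosomal coding genes.

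**Figure D1:**
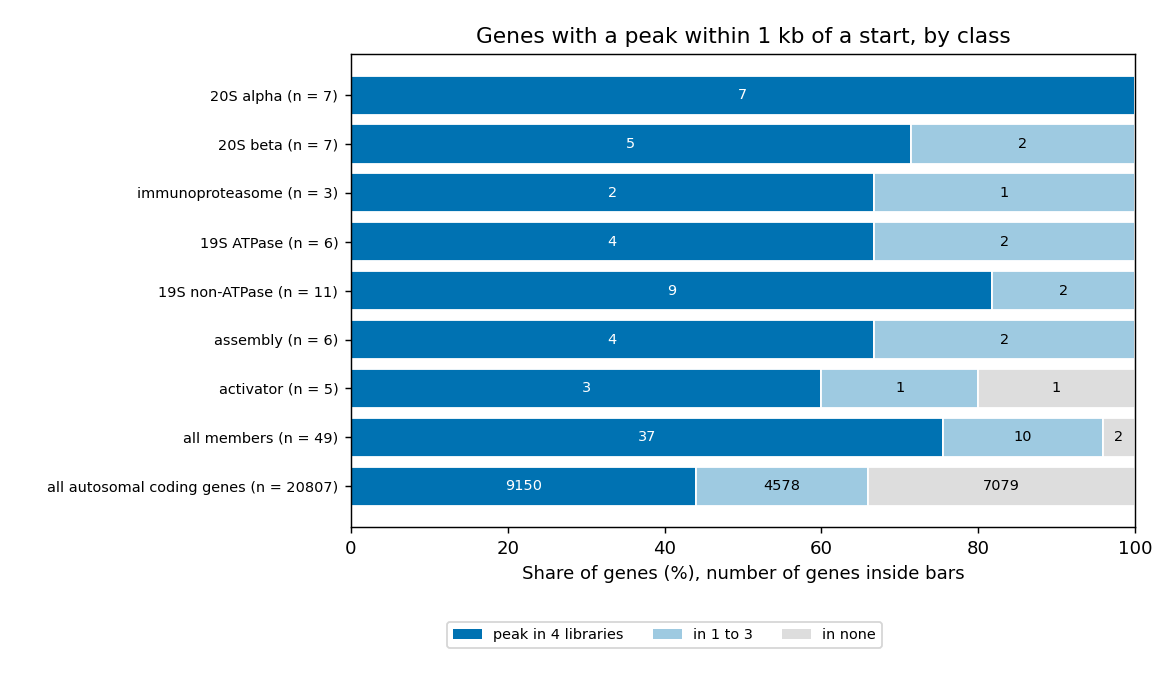
Share of genes (%) with a peak within 1 kb of a transcript start in 4, in 1 to 3 or in no library, for each class with more than 1 gene, all 49 proteasome genes and all 20807 autosomal coding genes; numbers of genes stand inside the bars. All 7 alpha subunit genes had a peak in 4 libraries, and the bar of all 49 genes reaches 75.5% against 44% for all coding genes.

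Among the alpha subunit genes Psma1 to Psma7, which encode the outer rings, 7 of 7 had a promoter peak in all 4 libraries. Psma7 had the widest, of 1597 bp in shGFP and 1360, 1259 and 1432 bp in shLuc replicates 1, 2 and 3. In each library its peak ran past the start on both sides, and the start of Ss18l1 on the opposite strand lay 76 bp upstream. Psma2 had the narrowest of the class, with widths of 843 bp in shGFP and 549, 652 and 639 bp in the shLuc replicates, and shared its peak with Mrpl32, whose start lay 75 bp away. The median over these 7 genes of the share covered by peaks, within 1 kb on either side of the principal start (the start of the best-supported transcript), was 45.0% for shGFP, beside 38.8%, 43.0% and 44.7% for the shLuc replicates. This median was lowest in the shortest list, but single genes differed. The share of Psma6 ran from 35.2% in shLuc replicate 1 to 53.1% in replicate 2. Psma1, Psma4 and Psma7 had their lowest share in shLuc replicate 2 and Psma5 in replicate 3.

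The promoter with the highest covered share among the constitutive 20S genes was that of Psma7 (GRCm38.p6 chr2:180042415-180042714, minus strand). It and the other promoters below are RefSeq sequences, given 5′ to 3′, from 250 bases before to 50 after the RefSeq start. Capitals mark matches to CCAAT (bound by NF-Y), TGACNNNGC (the core of an antioxidant response element), CCGGAAG (an ETS family site) or an interferon response element (GAAA, any 2 bases, GAAA), on either strand. This promoter held 41 CpG dinucleotides at a GC content of 77.0%, and peaks covered all 300 bases in every library.
Psma7: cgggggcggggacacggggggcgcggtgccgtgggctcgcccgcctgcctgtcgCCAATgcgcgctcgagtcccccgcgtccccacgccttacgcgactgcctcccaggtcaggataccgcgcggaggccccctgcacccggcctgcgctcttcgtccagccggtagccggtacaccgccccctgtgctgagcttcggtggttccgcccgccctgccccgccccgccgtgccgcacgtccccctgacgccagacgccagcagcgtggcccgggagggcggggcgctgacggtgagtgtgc

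The beta genes Psmb1 to Psmb7, which encode the inner rings, were less uniform: 5 of 7 had a promoter peak in all 4 libraries. Psmb5, the chymotrypsin-like subunit, had widths of 730, 626, 448 and 660 bp in shGFP and shLuc replicates 1, 2 and 3. Psmb6, the caspase-like subunit, had the lowest mean width of the class, 369 bp over the 4 libraries, with 311, 261 and 295 bp in shGFP and shLuc replicates 1 and 2 and 610 bp in replicate 3. Psmb7, the trypsin-like subunit, had a peak of 588 bp with the same coordinates in shGFP and shLuc replicate 2 and of 367 bp in replicate 1. In shLuc replicate 3 the nearest peak to Psmb7 lay 14335 bp from its principal start. The subunits that carry the 3 protease activities thus had promoter peaks in all 4 libraries except for Psmb7.

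Psmb3, a beta subunit without a protease site, had peaks of 989, 897 and 616 bp in shGFP and shLuc replicates 2 and 3. It had none in shLuc replicate 1, where the nearest lay 25071 bp away. Its mean of 834 bp, the highest of the class, is over those 3 libraries and so leaves out the shortest list. Psmb4, also without a protease site, had widths of 565, 222, 700 and 493 bp in shGFP and shLuc replicates 1, 2 and 3. Its peak in shLuc replicate 1 was the narrowest at any proteasome gene in that library. It was wider than only 0.0784% of the peaks of that list, whose narrowest was 221 bp. In the same list the peaks of Psmb6 and Psme1 were wider than 4.10% and 5.61% of the peaks. Psmb1 had a pair of peaks in every library. Its peak over the principal start was 640, 245, 610 and 529 bp wide, and a second one at another start, at -1453 bp, which also lay within 1 kb of a start of Tbp (the TATA-binding protein), was 682, 416, 607 and 571 bp wide. Across the beta genes the median covered share was 32.0% for shGFP, beside 13.0%, 30.5% and 29.1% for the shLuc replicates.

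**Figure D2:**
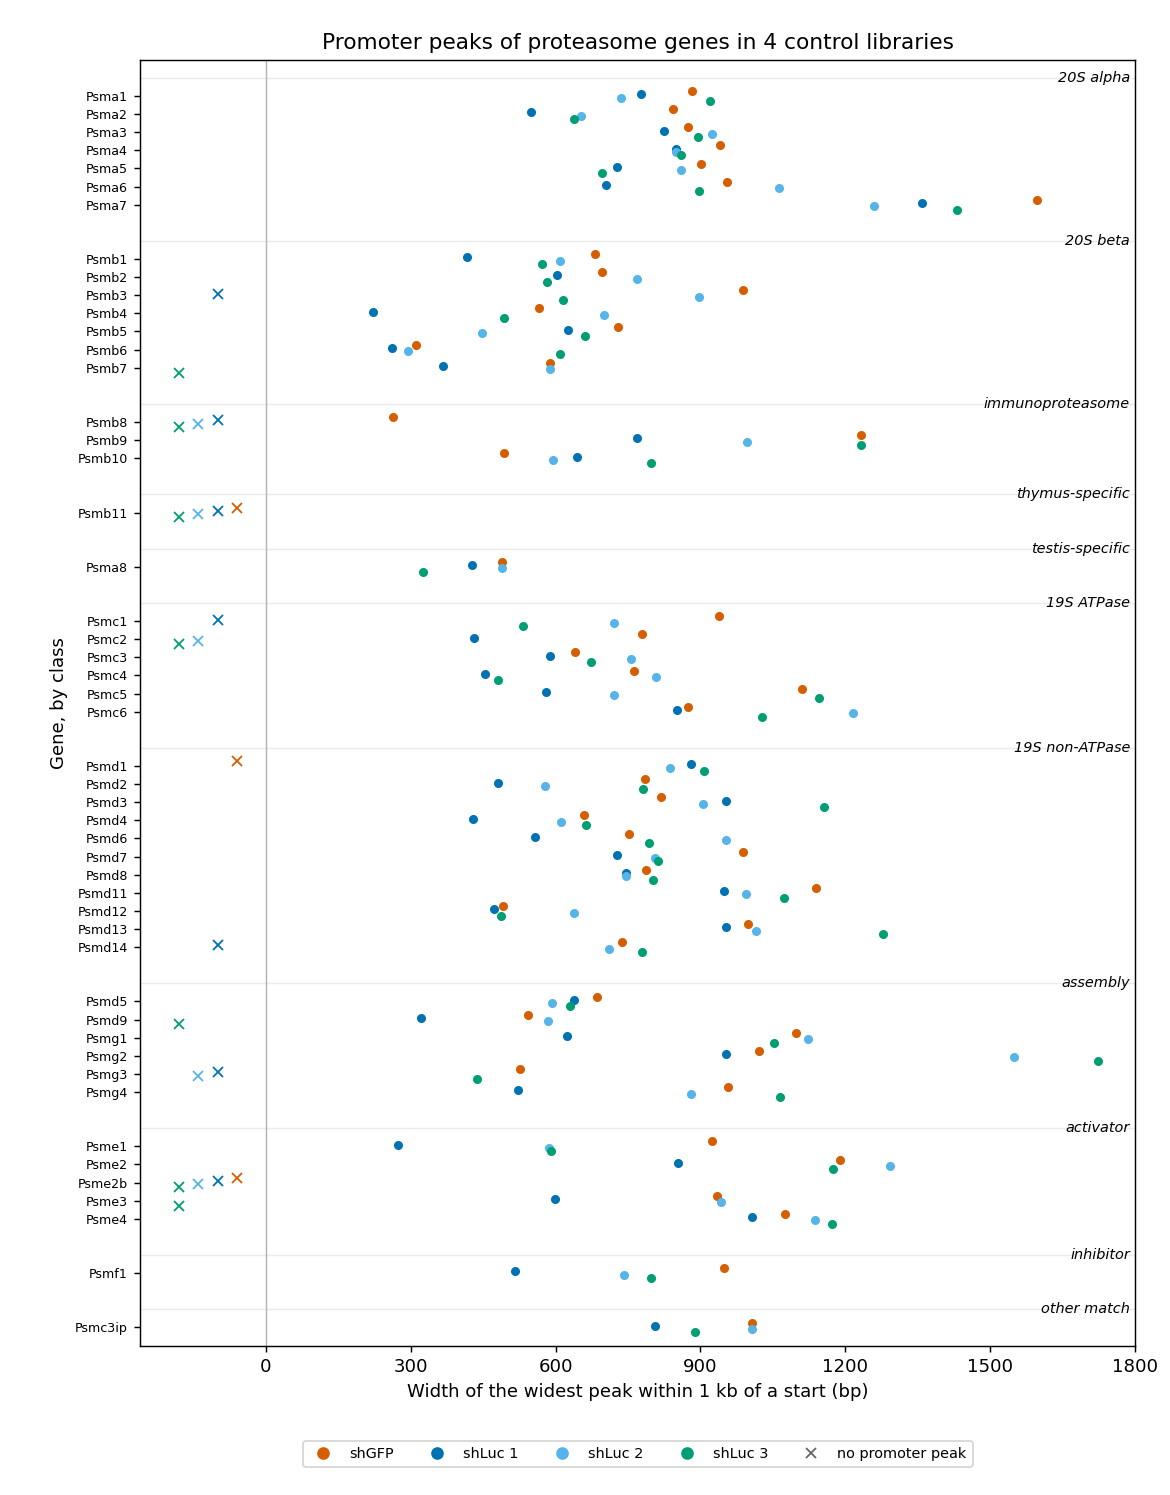
Width (bp) of the widest peak within 1 kb of a transcript start for each of the 49 genes, grouped by class, with 1 point per library (shGFP, shLuc replicates 1 to 3) and a cross left of 0 for a library without one. Psma7 and Psmg2 reach the widest values (1597 and 1724 bp), and the crosses mark the 12 genes without a peak in every library.

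The immunoproteasome genes differed from each other in where their peaks lay. Psmb9, which replaces Psmb6, had the widest, of 1232, 768, 997 and 1232 bp in shGFP and shLuc replicates 1, 2 and 3. Its peak covered the principal start in all 4 libraries and lay within 1 kb of a start of Tap1, a peptide transporter of antigen presentation, so the signal cannot be assigned to either gene. Psmb10, which replaces Psmb7, also counted as having a promoter peak in all 4 libraries, with widths of 494, 645, 595 and 797 bp. These peaks began 1056 to 1098 bp downstream of the principal start, over starts of non-coding transcripts 1406 and 1419 bp downstream, and covered 0% of the bases within 1 kb of the principal start. When only starts of protein-coding transcripts were used, 1 of the 3 immunoproteasome genes, Psmb9, had a promoter peak in every library.

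Psmb8, which replaces Psmb5, had a promoter peak in shGFP only, a pattern shared by 366 of all autosomal coding genes (1.76%). The peak was 263 bp wide (chr17:34198152-34198414), wider than 3.07% of the peaks of that list, and ran from 362 to 624 bp downstream of the principal start. It covered the RefSeq start, which lies 405 bp downstream of the GENCODE principal start. In shLuc replicates 1, 2 and 3 the nearest peaks lay 9913, 9817 and 9464 bp from the principal start. The principal starts of Psmb8 and Psmb9 lie 10.0 kb apart.

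The 3 immunoproteasome promoters are shown because they carry this contrast (GRCm38.p6, chr17:34197945-34198244 plus strand for Psmb8, chr17:34187281-34187580 minus strand for Psmb9 and chr8:105938343-105938642 minus strand for Psmb10). The RefSeq starts of Psmb9 and Psmb10 lie 434 and 52 bp downstream of their principal starts. The 3 promoters hold 11, 17 and 3 CpG dinucleotides in turn. Peaks covered all 300 bases of the Psmb9 promoter in every library, 93 bases of the Psmb8 promoter in shGFP and 0 in each shLuc library, and 0 bases of the Psmb10 promoter in any library. In none of the 3 did the interferon response element occur in this window.
Psmb8: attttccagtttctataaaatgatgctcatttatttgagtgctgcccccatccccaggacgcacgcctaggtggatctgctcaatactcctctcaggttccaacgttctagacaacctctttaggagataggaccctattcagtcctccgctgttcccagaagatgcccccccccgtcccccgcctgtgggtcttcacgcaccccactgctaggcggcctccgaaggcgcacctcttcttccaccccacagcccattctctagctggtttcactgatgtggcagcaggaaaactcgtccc
Psmb9: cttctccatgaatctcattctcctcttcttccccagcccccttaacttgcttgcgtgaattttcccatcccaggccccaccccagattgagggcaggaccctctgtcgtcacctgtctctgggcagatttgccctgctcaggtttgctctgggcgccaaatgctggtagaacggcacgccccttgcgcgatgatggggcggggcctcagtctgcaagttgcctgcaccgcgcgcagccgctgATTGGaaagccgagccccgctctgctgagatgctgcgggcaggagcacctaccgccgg
Psmb10: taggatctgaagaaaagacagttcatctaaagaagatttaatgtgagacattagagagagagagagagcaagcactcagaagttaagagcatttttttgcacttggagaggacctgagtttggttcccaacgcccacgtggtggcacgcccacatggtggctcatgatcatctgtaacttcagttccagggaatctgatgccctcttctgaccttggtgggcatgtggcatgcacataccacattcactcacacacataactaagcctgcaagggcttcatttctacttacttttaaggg

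The tissue-specific core genes fell on opposite sides. Psma8, a testis-specific relative of Psma7 known for its place in the proteasome of male germ cells, had a promoter peak in all 4 libraries. Its widths were 488 bp in shGFP and 427, 488 and 326 bp in shLuc replicates 1, 2 and 3, and each peak covered the principal start. That start region was not CpG-rich, with a GC content of 45.4% over 1000 bp, the lowest of the 49 genes. Psmb11, the thymus-specific beta subunit made by cortical epithelial cells, had no promoter peak in any library. Its nearest peaks lay 6705, 6744, 6720 and 6734 bp from the principal start in shGFP and shLuc replicates 1, 2 and 3, and Psmb5, which had a peak in all 4 libraries, starts 7.29 kb away.

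The 19S genes encode the cap, and 13 of 17 (76.5%) had a promoter peak in all 4 libraries, beside 12 of 14 (85.7%) of the constitutive 20S genes. Of the ATPase genes Psmc1 to Psmc6, which form the unfolding ring, 4 of 6 did. Psmc6 had the highest mean width among them, 993 bp over the 4 libraries, with 875 bp in shGFP and 851, 1217 and 1028 bp in shLuc replicates 1, 2 and 3. Psmc1 had peaks of 939, 721 and 532 bp in shGFP and shLuc replicates 2 and 3 and none in shLuc replicate 1, where the nearest lay 49049 bp away.

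At Psmc2, the shGFP peak was 780 bp wide, the peak of shLuc replicate 1 was 432 bp wide, and the other libraries had none. Both peaks ended upstream of the principal start, by 4 and 62 bp, on the side of Dnajc2, a chaperone gene whose start lies 32 bp away on the opposite strand. In shLuc replicates 2 and 3 the nearest peaks lay 1158 and 1196 bp from the principal start, just outside the 1 kb limit. Those belonged to an intragenic region (chr5:21786441-21787160) that also had a peak in shGFP. A second intragenic region of Psmc2 (chr5:21791960-21792529), centred 6961 bp downstream of the start and near no other annotated start, had a peak in all 4 libraries. This was the only region in the body of a proteasome gene, away from any annotated start, with a peak in every library, among 12 body regions found.

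Of the 11 non-ATPase genes of the cap, 9 had a promoter peak in all 4 libraries. These include Psmd2, a scaffold subunit, and Psmd4, a receptor for ubiquitin. Psmd13 had the highest mean width, 1062 bp, with 999 bp in shGFP and 954, 1016 and 1278 bp in shLuc replicates 1, 2 and 3, and each peak lay also within 1 kb of a start of Sirt3, a mitochondrial deacetylase. Psmd12 had the lowest mean width, 522.5 bp, with 492, 473, 638 and 487 bp in the same order. Psmd14, the deubiquitinase of the cap, had peaks of 737, 710 and 779 bp in shGFP and shLuc replicates 2 and 3 and none in shLuc replicate 1, where the nearest lay 100154 bp away.

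Psmd1, the other large scaffold subunit, was the reverse case. It had peaks of 881, 838 and 908 bp in shLuc replicates 1, 2 and 3 and none in shGFP, where the nearest lay 4908 bp away. This pattern, a peak in every shLuc library and none in shGFP, was shared by 62 of all autosomal coding genes (0.298%). The Psmd1 peaks were wider than 78.3%, 69.5% and 73.6% of the peaks of their lists. With 1 shGFP library, the gap has no replicate.

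Psmd13 had the highest mean covered share of the 19S genes over the 4 libraries, taken around its principal start. Its RefSeq promoter (GRCm38.p6 chr7:140882144-140882443, plus strand) is set by a start 426 bp downstream of that one. Its single CCGGAAG ends on the RefSeq start, 22 CpG dinucleotides lie in it, and peaks covered all 300 bases in every library.
Psmd13: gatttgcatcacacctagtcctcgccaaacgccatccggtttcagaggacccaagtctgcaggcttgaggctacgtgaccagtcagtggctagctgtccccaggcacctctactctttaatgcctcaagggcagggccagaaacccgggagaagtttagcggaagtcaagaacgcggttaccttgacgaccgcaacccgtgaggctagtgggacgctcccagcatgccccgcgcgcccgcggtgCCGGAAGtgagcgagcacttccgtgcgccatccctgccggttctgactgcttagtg

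Of the 6 assembly factor genes, 4 had a promoter peak in all 4 libraries. Psmg2, which pairs with Psmg1 to build the alpha ring, had the highest mean width, 1312 bp, with 1022, 952, 1550 and 1724 bp in shGFP and shLuc replicates 1, 2 and 3, on a start region shared with Cep76 at a distance of 263 bp. Psmg1 had widths of 1097, 623, 1122 and 1053 bp. Psmg4, which acts with Psmg3, had widths of 958, 522, 881 and 1065 bp. Psmd5, a chaperone of the 19S base, varied least of the 4, with widths of 685, 638, 593 and 629 bp. In these 4 genes shLuc replicate 1 had the narrowest peak in all but Psmd5.

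Psmg3 had peaks of 527 bp in shGFP and 437 bp in shLuc replicate 3, and none in shLuc replicates 1 and 2, where the nearest lay 33905 and 22602 bp away. Psmd9, a second chaperone of the 19S base, had peaks over its principal start of 507, 321 and 560 bp in shGFP and shLuc replicates 1 and 2, and none in shLuc replicate 3, where the nearest lay 23736 bp away. Psmg3 and its partner Psmg4 thus differed, since only Psmg4 had a promoter peak in all 4 libraries. The Psmg1 promoter (GRCm38.p6 chr16:95990911-95991210, minus strand) is shown for the assembly factors. It holds 30 CpG dinucleotides and 1 CCGGAAG, and all 300 bases were covered in every library.
Psmg1: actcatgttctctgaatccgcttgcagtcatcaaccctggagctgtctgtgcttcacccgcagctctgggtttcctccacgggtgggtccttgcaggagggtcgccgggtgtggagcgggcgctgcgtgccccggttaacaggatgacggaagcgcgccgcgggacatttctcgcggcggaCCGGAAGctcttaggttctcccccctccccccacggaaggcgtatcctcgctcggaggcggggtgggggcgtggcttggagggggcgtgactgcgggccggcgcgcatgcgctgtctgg

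Of the activator genes, Psme1, Psme2 and Psme4 had a promoter peak in all 4 libraries. Psme1 and Psme2 encode the interferon-inducible activator that caps the core without ATP, and their principal starts lie 12.7 kb apart. Psme2 had the wider peaks, of 1189, 854, 1293 and 1174 bp in shGFP and shLuc replicates 1, 2 and 3. The start of Rnf31, part of a linear ubiquitin ligase, lay 621 bp upstream, inside each of these peaks. In shLuc replicates 1 and 3 the peaks reached only 6 and 60 bp downstream of the principal start of Psme2. The signal therefore cannot be assigned to either gene. Psme1 had peaks of 925, 274, 587 and 591 bp. The base pairs of Psme1 that peaks of all 4 libraries shared were 192 of 967 covered in any, or 19.9%, the lowest share among the 37 genes. Psme4, an activator of nuclear proteasomes, stood at the other end, with widths of 1075, 1006, 1137 and 1173 bp and 85.4% shared.

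Psme3, the nuclear activator, had peaks of 935, 599 and 942 bp in shGFP and shLuc replicates 1 and 2, and none in shLuc replicate 3, where the nearest lay 8105 bp away. Psme2b, a gene named after Psme2 with a single annotated transcript, had none in any library, with the nearest peaks 5024 to 5116 bp away. Psmf1, the inhibitor, had widths of 949, 516, 742 and 797 bp. Psmc3ip, which encodes no proteasome subunit, had widths of 1007, 805, 1006 and 888 bp.

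The promoters of Psme2, Psme2b and Psmb11 are set side by side as an activator with peaks in all libraries and the 2 genes with none (GRCm38.p6, chr14:55591052-55591351 minus strand, chr11:48946361-48946660 minus strand and chr14:54625060-54625359 plus strand). They hold 11, 2 and 4 CpG dinucleotides in turn. The RefSeq start of Psme2b lies at -220 bp from its principal start. Peaks covered 300, 271, 300 and 300 bases of the Psme2 promoter in shGFP and shLuc replicates 1, 2 and 3, and 0 bases of the other 2.
Psme2: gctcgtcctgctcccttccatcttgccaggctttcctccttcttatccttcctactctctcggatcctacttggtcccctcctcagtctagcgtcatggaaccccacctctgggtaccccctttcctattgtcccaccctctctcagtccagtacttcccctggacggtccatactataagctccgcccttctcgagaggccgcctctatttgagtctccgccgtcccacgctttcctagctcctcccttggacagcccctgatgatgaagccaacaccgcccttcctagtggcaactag
Psme2b: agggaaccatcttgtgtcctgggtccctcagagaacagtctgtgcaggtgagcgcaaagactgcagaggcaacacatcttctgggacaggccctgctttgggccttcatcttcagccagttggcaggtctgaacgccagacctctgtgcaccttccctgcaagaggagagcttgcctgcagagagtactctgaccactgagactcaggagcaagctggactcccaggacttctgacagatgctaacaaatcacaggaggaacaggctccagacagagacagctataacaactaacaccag
Psmb11: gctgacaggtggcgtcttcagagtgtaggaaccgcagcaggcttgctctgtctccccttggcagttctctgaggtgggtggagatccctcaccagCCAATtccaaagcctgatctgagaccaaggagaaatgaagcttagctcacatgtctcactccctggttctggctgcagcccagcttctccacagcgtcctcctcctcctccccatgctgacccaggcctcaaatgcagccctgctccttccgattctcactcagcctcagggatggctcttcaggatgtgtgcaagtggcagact

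The 10 genes with a promoter peak in 1 to 3 libraries were spread over the classes. The lone absence was in shLuc replicate 1 at Psmb3, Psmc1 and Psmd14, a pattern of 9.68% of all autosomal coding genes, and in shLuc replicate 3 at Psmb7, Psmd9 and Psme3, a pattern of 2.23%. Psmd1 lacked a peak in shGFP, while Psmc2, Psmg3 and Psmb8 lacked one in more than 1 library. None of the 10 lacked a peak in shLuc replicate 2 alone, as did 87 of all autosomal coding genes (0.418%). In each class with more than 1 such gene, the absences fell in different libraries.

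Most promoter peaks of the proteasome genes lay over the start. A peak covered the principal start of 43 of the 49 genes in shGFP (87.8%) and of 39, 43 and 41 in shLuc replicates 1, 2 and 3 (79.6%, 87.8% and 83.7%), against 53.1%, 39.9%, 52.4% and 47.7% of all autosomal coding genes in the same order. Among genes with a promoter peak in the library, those shares were 93.5%, 92.9%, 97.7% and 97.6% for the proteasome genes and 85.7%, 82.4%, 85.3% and 84.6% for all autosomal coding genes. For peaks that covered the principal start, the median offset of their centre from it was 46.5, 33.5, 81.0 and 50.5 bp downstream. For all autosomal coding genes this median was 70.5, 53.5, 65.5 and 66.5 bp. Promoter peaks that did not cover the principal start, such as those of Psmb10, do not enter these medians. For the 37 genes with a peak in all 4 libraries, a median of 60.6% of the bases covered in any library were covered in all, which is a median of 623 bp (range 192 to 1213). The peaks were not wider than those of other genes. Their median width was 859 bp in shGFP and 624.5, 786.5 and 797 bp in shLuc replicates 1, 2 and 3, and that of all autosomal coding genes with a promoter peak was 971, 708, 936 and 900 bp.

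**Figure D3:**
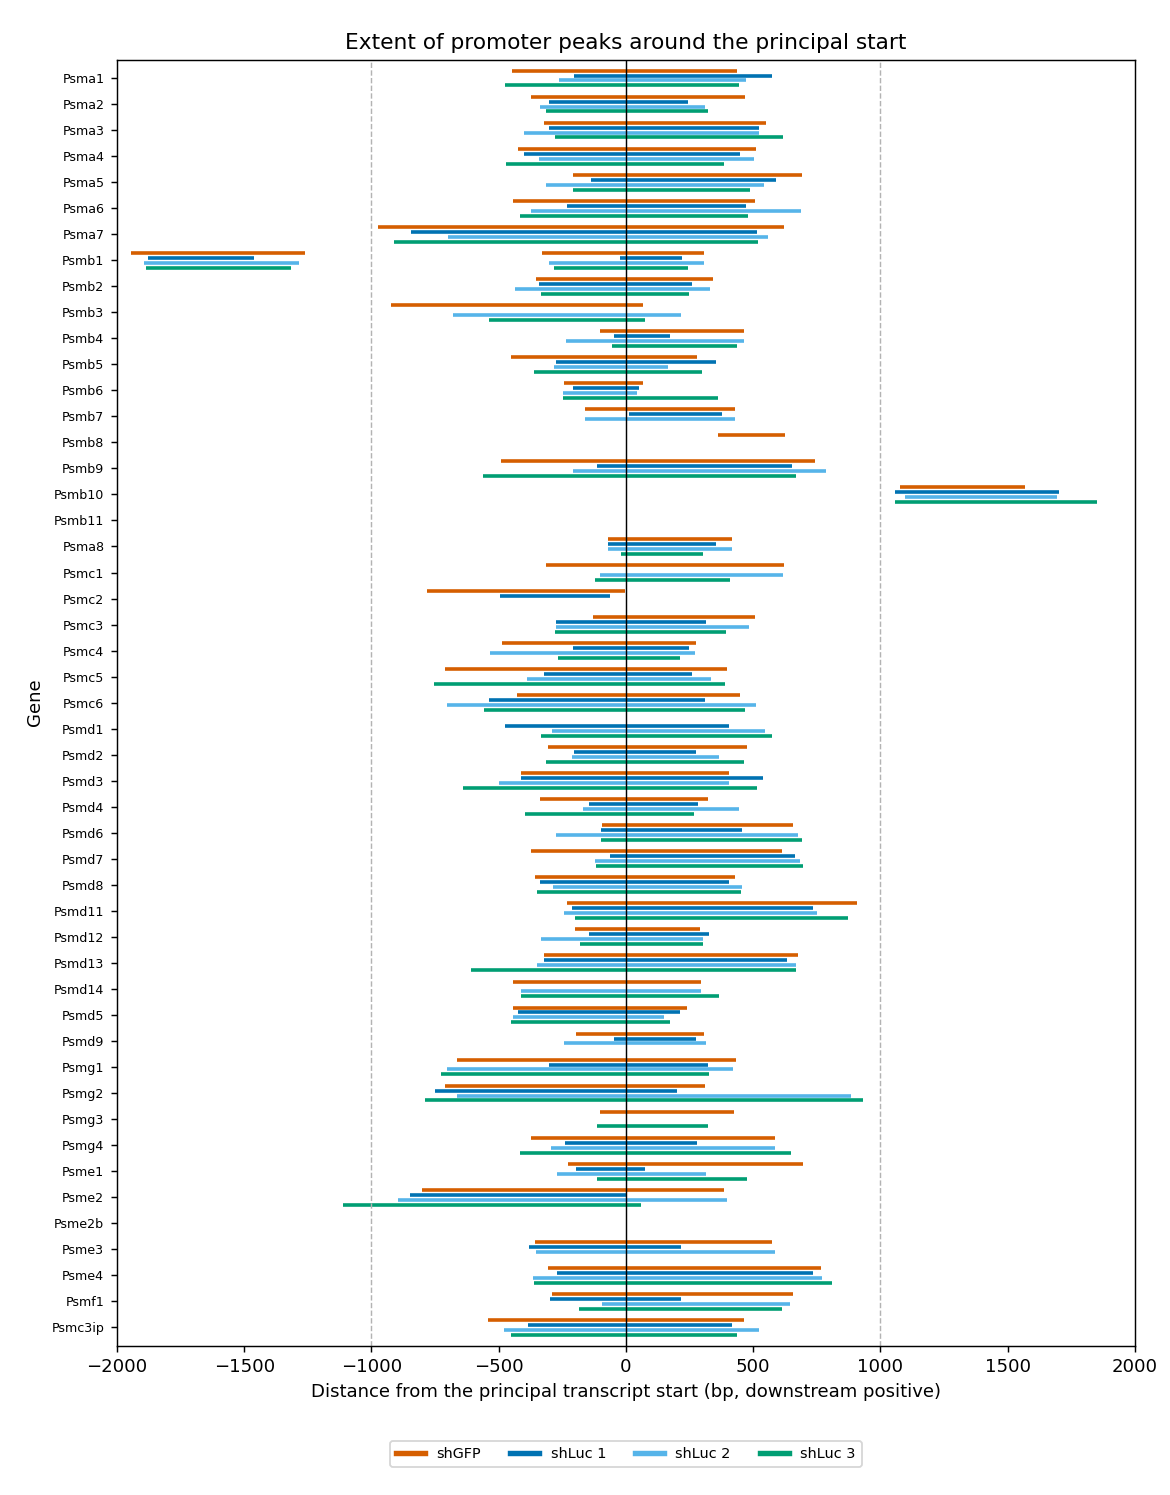
Extent of each promoter peak (bp from the principal start, downstream positive) for the 49 genes, 1 bar per library; dashed lines stand at 1000 bp on either side, and peaks of Psmd9 over 7251 bp downstream fall outside the axis. Most bars cross 0, those of Psmb10 begin 1056 to 1098 bp downstream, those of Psmc2 end 4 and 62 bp upstream, and Psmb11 and Psme2b have none.

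Between the hairpins, shGFP had promoter peaks at 46 of the 49 genes and the shLuc libraries at 42.7 ± 1.15 (SD, n = 3), a difference of 3.33 genes that was larger than the SD. Promoter peaks had a median width of 859 bp for shGFP, beside a shLuc mean of 736 ± 96.7 bp (SD, n = 3), a difference of 123 bp. Peaks covered a median of 40.9% of the bases around the start for shGFP, beside a shLuc mean of 33.7% ± 4.24 (SD, n = 3), a difference of 7.20 percentage points. With all peaks kept, each difference exceeded the SD of the shLuc libraries. The list of shGFP was the longest. The number of genes is compared below at equal list length, and the cause of the differences was not tested. Without shLuc replicate 1 the difference in width was 67.2 bp and that in covered share 4.85 points. Over all autosomal coding genes the shGFP library had 1358 more genes with a promoter peak than the shLuc mean (SD 1374, n = 3), a median width also 123 bp higher (SD 123) and a covered share 14.3 points higher (SD 14.5). When the widest 17860 peaks of each list were used, so that all lists were equally long, shGFP had 32 of the proteasome genes against 35.0 ± 6.25 (SD, n = 3) in shLuc. The list of shLuc replicate 1 has that length already and lost no peak, so it kept 42 genes, while replicates 2 and 3 had 30 and 33. The difference was then -3 genes with that library and 0.5 genes without it (shLuc mean 31.5), within the SD both ways.

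In sequence, most proteasome genes start in CpG-rich DNA, the class of promoter that is typical of widely expressed genes. In the 1000 bp around the principal start, 40 of the 49 (81.6%) were CpG-rich, defined as a GC content of at least 50% with a CpG observed over expected ratio of at least 0.6, against 47.3% of all autosomal coding genes. The median ratio was 0.729 against 0.585, while the median GC content was 56.4% against 55.6% and the median share of repeat-masked bases was 9.1% in both. All 17 genes of the 19S cap were CpG-rich. The other 9 genes were Psmb6, Psmb8, Psmb10, Psmb11, Psma8, Psmg4, Psme1, Psme2 and Psme2b, which include 2 of the 3 immunoproteasome genes and both tissue-specific core genes.

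The proteasome genes were then read by this class. Of the 40 CpG-rich genes, 31 (77.5%) had a promoter peak in all 4 libraries, against 71.5% of all CpG-rich autosomal coding genes. Of the 9 others, 6 (66.7%) did, against 19.2%, namely Psmb6, Psmb10, Psma8, Psmg4, Psme1 and Psme2. Psmb10 counts through its internal starts, and the Psme2 peak cannot be assigned apart from Rnf31. Psmb6 missed the CpG-rich class narrowly, by its GC content alone (48.9%), and Psmg4 by its ratio alone (0.597). An upstream coding neighbour on the opposite strand within 1 kb was annotated for 6 of the 49 (12.2%), against 7.16% of all autosomal coding genes. These 6 were Psma2, Psma7, Psmc2, Psmc5, Psmg2 and Psme2, and 5 of them had a promoter peak in all 4 libraries, against 80% of all genes with such a neighbour.

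**Figure D4:**
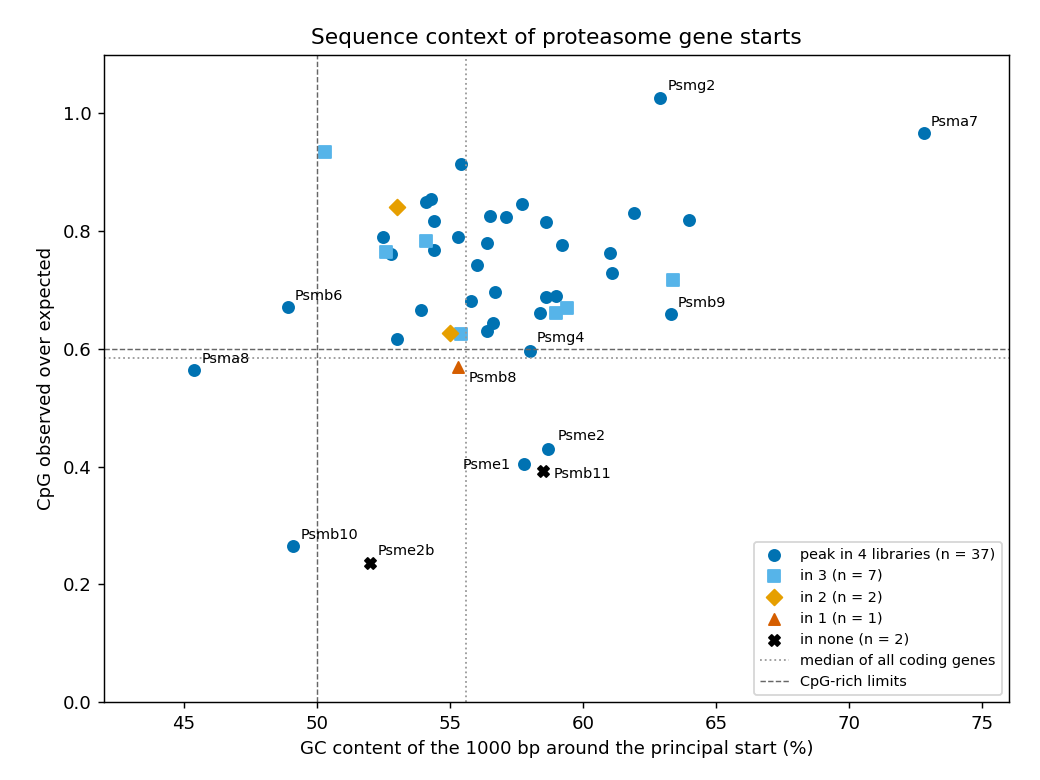
GC content (%) and CpG observed over expected ratio of the 1000 bp around the principal start of the 49 genes, with symbols for the number of libraries with a promoter peak; dashed lines mark the limits of the CpG-rich class and dotted lines the medians of all autosomal coding genes. The 17 genes of the 19S cap all lie in the upper right, while Psmb11 and Psme2b, without a peak in any library, lie at ratios of 0.392 and 0.237.

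RefSeq promoter sequence was at hand for 41 of the 49 genes and for 15703 autosomal coding genes, and 9 short motifs were sought on both strands. The widest gap to all coding promoters, in percentage points, was that of the ETS site CCGGAAG, found in 15 of 41 (36.6%), against 12.7% of all coding promoters and 20.2% of the 7708 CpG-rich ones. Among the promoters at hand it occurred in 1 of the alpha and in none of the beta genes, in 9 of the 19S genes, and in Psmg1, Psmg3, Psme3, Psme4 and Psmc3ip. The promoters at hand were not counted by class, so these numbers allow no comparison between classes. AAGATGG, the core of a YY1 site, occurred in 8 (19.5%, against 6.43% and 7.3%) and the interferon response element in 5 (12.2%, against 3.49% and 2.28%). Those 5 were Psmb3, Psmd4, Psmd9, Psmg4 and Psme1, of which Psme1 is known as an interferon-inducible gene.

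The other motifs showed smaller gaps to all coding promoters. TGACNNNGC, which contains the site used by Nfe2l1 (a transcription factor that raises proteasome genes when proteasomes are inhibited), occurred in 6 of 41 (14.6%), against 13.4% of all coding promoters and 15.3% of the CpG-rich ones. These were Psmb5, Psmb6, Psmc6, Psmd12, Psmd9 and Psme4. CCAAT occurred in 13 (31.7%, against 38.3% and 37.5%), CACGTG in 4 (9.76%, against 8.09% and 11.1%), TTCNNNGAA in 3 (7.32%, against 7.76% and 5.53%) and TATAAA in 4 (9.76%, against 12.9% and 5.29%). The GC box GGGCGG occurred in 22 (53.7%), against 49.1% of all and 74.2% of CpG-rich promoters, so that its share lay below that of the CpG-rich ones. Each match is a run of letters and no measured binding.

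Genes that work with the proteasome but fall outside the symbol rule were also accessible. Of 17 such genes, 16 had a promoter peak in all 4 libraries, beside 44% of all autosomal coding genes and 71.5% of the CpG-rich ones. These 17 genes were not split by CpG class. The 16 include Pomp, the maturation factor of the core, and Adrm1, a ubiquitin receptor. They also include the deubiquitinases Uchl5 and Usp14, and Psmd10, an X-linked chaperone of the 19S base. The peaks of Psmd10 were 787 bp wide in shGFP and 693, 737 and 813 bp wide in shLuc replicates 1, 2 and 3. Nfe2l1 had widths of 1175, 760, 951 and 907 bp in the same order. Nfe2l2, its relative in the response to oxidative stress, had peaks of 1840, 1560 and 1804 bp in shGFP and shLuc replicates 2 and 3 and none in shLuc replicate 1, the shortest list.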

How the data were processed

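ATAC-seq peak positions were analysed for 4 libraries of E14 ESCs (1 shGFP, 3 shLuc). The authors deposited 1 list per library with 3 columns (chromosome, start, end), counted from 0 and converted here to counting from 1; replicates were not pooled, and no height or score is given. The submitters' processing notes name bcl2fastq, Bowtie2, MACS2 and mm10. Per the study's methods, reads with equally good positions were placed at random, mitochondrial reads were dropped and concordant pairs were kept, under a heading that also covers ChIP-seq. The peak threshold and any shift for the transposase are not given in the sources used here. A shorter list can reflect fewer reads, so absence of a peak is absence from that list. Genes, starts and sequence came from GENCODE vM21 and GRCm38, the coordinates of mm10.

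Python 3.11.15, numpy 2.4.6 and matplotlib 3.10.9 were used, and the overlap code was tested on simulated peaks. The principal start was that of the transcript ranked first by APPRIS, then coding status, support and length. All 49 genes are named by class and number of libraries; values per library are given for genes with a peak in 0 to 3 libraries, for tissue-specific and immunoproteasome genes and for the widest and narrowest of each class. Psmb1, Psmb4, Psmb5, Psmd5, Psmg1, Psmg4, Psme4, Psmd10, Nfe2l1 and Nfe2l2 were added after their values were seen. Genes and lists were chosen with earlier results of these data known. No test was run across genes. Comparison of paralogous proteins was not run, and Paaf1 was not analysed here.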

Additional observations from a re-analysis of the deposited data

How the results depend on the processing

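Over 18 summary values and 11 alternative settings, 139 of 179 recomputed values kept their direction and stayed within 1.5 times the reported count or within 1 SD of the shLuc libraries. Leaving out 1 shLuc library at a time gave 37 to 40 genes with a promoter peak in all remaining libraries, 7 to 10 in some and 2 in none. A window of 500 bp gave a median covered share of 73.6% in shGFP and 64.4% in shLuc. A window of 5 kb left 1 gene without a peak, gave 48 genes in shGFP and 44.7 in shLuc, and covered 8.75% and 7.16%, a difference of 1.59 points. With starts of protein-coding transcripts only, and with the principal start only, 1 immunoproteasome gene had a peak in all libraries. With the widest 50% of each list, 18 genes had a peak in all libraries, 22 in some and 9 in none, with 6 of the 20S core, 6 of the 19S, 1 of the immunoproteasome and 2 of the assembly genes in all libraries, against 26.4% of all coding genes. That setting gave 36 genes in shGFP and 27.3 in shLuc, a difference of 8.67, a median width of 868.7 bp in shLuc, and a covered share of 24.0% in shLuc, 16.9 points below shGFP. With the widest 17860 peaks of each list, 22 genes had a peak in all libraries, 23 in some and 4 in none. The share of all coding genes with a peak in all libraries was then 32.8%. The 22 included 6 of the 20S core, 8 of the 19S and 1 of the immunoproteasome genes. There were 32 genes in shGFP against 35 in shLuc, a difference of -3, which reversed the direction. That setting leaves the list of shLuc replicate 1 whole. Without that library, a setting chosen after seeing the data, it gave 24 genes with peaks in every library and 10 without any. The share of all coding genes with peaks in every library was then 38.3%. The 24 included 7 of the 20S core and 1 of the immunoproteasome genes. The shLuc mean was 31.5 genes, the difference 0.5 and the shLuc median width 894.5 bp. Without shLuc replicate 1 and all peaks kept, the shGFP difference in width was 67.2 bp instead of 123 bp. The cause was not tested beyond this. No paired analysis was possible because the shGFP library carries no replicate number. Peak lists without heights give no depth, and 1 shGFP library gives no error for that hairpin.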
